A study of Homo sapiens with 7 samples.

Results

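The 947 distant upstream antisense transcription start sites (uaTSSs) described here lay more than 400 and up to 1000 nt upstream of their gene TSS, out of 5519 uaTSSs called at 10391 gene TSSs in human T-47D breast cancer cells. The members were chosen by the measured distance between the called gene TSS and the uaTSS paired with it, read on the strand of the gene. That distance is therefore a description and not a result. The cells are labelled T-47D, and the methods of the study name the derivative T47D/A1-2, which overexpresses rat glucocorticoid receptor and carries an integrated MMTV luciferase reporter. They were grown in medium with 10% serum and moved for at least 24 h before harvest to 5% serum stripped with charcoal and dextran, and no other treatment was compared. Start-seq, which sequences the 5′ ends of short capped nuclear RNA, gave the TSS positions, and RNA-seq gave 1 FPKM value per gene. TSS calls from 1 Start-seq library were used, and the FPKM values came from the merged alignments of 3 RNA-seq replicates. The second Start-seq library and the MNase-seq and FAIRE-seq libraries were not analysed here.

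Divergent transcription is the production of RNA in both directions from 1 promoter region. RNA polymerase II initiates the gene on 1 strand and a short, rapidly degraded RNA on the other, usually from a core promoter of its own at the opposite edge of the nucleosome-free region. Most human promoters with this arrangement lie in CpG islands. A uaTSS that lies far upstream can be the partner of the called gene TSS, the partner of another start of the same gene, or the start of a neighbouring gene, and the positions alone do not tell these apart.

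The way the sites were called bears on every value. For each gene TSS the authors searched the antisense strand over 1000 nt upstream and kept the position with the most 5′ ends, if it had at least 5 reads. By this rule a distant call means that no nearer antisense position had more reads, and 2 uaTSSs of similar strength cannot be told from 1. Positions at called gene TSSs appear to have been passed over, as described below, so a nearer one of these could have more reads. No read number came with the calls, because the score of every site was 0, so the depth behind each site is unknown. With 1 library of calls and 1 merged FPKM value per gene there is no replicate error, and no difference was tested. Shares are given with exact Clopper-Pearson 95% intervals and medians with exact 95% intervals from order statistics. These cover the counting of sites only, and sites are not replicates of a condition. Where intervals are said to overlap, this is a description and does not show that the groups are equal.

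The sequence around a uaTSS shows which core promoter letters it has. The following sequences are GRCh37 (hg19) reference sequence on the strand of the uaTSS, 5′ to 3′, from 30 nt before to 20 nt after the called nucleotide. The dinucleotide in capitals is the base before the called nucleotide and the called nucleotide itself. The first 5 belong to genes among the members with the highest FPKM, the next 2 to regulators of luminal breast cells, and the last 4 to uaTSSs at an annotated start of a protein-coding gene on the opposite strand.
RACK1 uaTSS, chr5:180671399-180671449, + strand: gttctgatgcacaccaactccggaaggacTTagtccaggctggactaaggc
TAGLN2 uaTSS, chr1:159893673-159893723, + strand: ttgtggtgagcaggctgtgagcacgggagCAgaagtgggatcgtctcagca
UBB uaTSS, chr17:16283968-16284018, − strand: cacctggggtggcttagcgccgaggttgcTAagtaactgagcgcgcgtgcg
CALR uaTSS, chr19:13048765-13048815, − strand: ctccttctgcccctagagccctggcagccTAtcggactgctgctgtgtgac
ACTG1 uaTSS, chr17:79480612-79480662, + strand: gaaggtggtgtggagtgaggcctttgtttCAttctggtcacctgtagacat
XBP1 uaTSS, chr22:29196932-29196982, + strand: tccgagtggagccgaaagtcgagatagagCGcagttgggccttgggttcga
FOXA1 uaTSS, chr14:38065403-38065453, + strand: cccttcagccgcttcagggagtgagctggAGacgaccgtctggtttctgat
RMI1 uaTSS (HNRNPK strand), chr9:86594521-86594571, − strand: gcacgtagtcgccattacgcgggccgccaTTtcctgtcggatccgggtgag
SHLD2 uaTSS (GLUD1 strand), chr10:88854583-88854633, − strand: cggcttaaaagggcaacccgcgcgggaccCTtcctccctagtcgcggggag
ZNF697 uaTSS (PHGDH strand), chr1:120190965-120191015, + strand: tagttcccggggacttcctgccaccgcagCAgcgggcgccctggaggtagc
HNRNPA1 uaTSS (CBX5 strand), chr12:54673920-54673970, − strand: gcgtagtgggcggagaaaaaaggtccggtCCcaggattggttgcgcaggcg

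A TATA box is the AT-rich element that TBP binds a short way upstream of the start at a minority of promoters. TATAA or TATAT, beginning 35 to 24 nt upstream of the called nucleotide on its own strand, was found at 12 of 947 distant uaTSSs (1.27%, 0.656 to 2.20) and at 25 of 4572 other uaTSSs (0.547%, 0.354 to 0.806), and these intervals overlapped. The following 7 of the 12 are shown as examples of these letters, a choice made after the values were seen. The window runs from 40 nt before to 20 nt after the called nucleotide, and the TATA letters are also in capitals.
EIF2S2 uaTSS, chr20:32700191-32700251, + strand: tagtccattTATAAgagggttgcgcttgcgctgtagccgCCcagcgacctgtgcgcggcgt
WFS1 uaTSS, chr4:6271141-6271201, − strand: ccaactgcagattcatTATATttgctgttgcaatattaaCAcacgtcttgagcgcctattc
AMN1 uaTSS, chr12:31882161-31882221, + strand: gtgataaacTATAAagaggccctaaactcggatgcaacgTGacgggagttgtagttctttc
DEPDC5 uaTSS, chr22:32149592-32149652, − strand: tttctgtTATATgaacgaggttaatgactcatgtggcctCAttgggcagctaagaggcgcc
ZNF112 uaTSS, chr19:44861102-44861162, + strand: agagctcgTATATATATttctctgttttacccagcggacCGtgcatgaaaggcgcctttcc
LHX4 uaTSS, chr1:180198998-180199058, − strand: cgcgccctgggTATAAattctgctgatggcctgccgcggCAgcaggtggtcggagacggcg
HAVCR2 uaTSS, chr5:156570241-156570301, + strand: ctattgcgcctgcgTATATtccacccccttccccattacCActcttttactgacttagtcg

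The median distance of the 947 members was 546 nt (530 to 559), with quartiles of 457 and 696 nt. They made up 17.2% of all uaTSSs, beside 576 uaTSSs at 1 to 80 nt, 2194 at 81 to 200 nt and 1802 at over 200 to 400 nt. Their number fell with distance from 360 in the interval up to 500 nt through 216, 142, 89 and 67 in the next 4 intervals of 100 nt, and was 73 in the last interval, up to 1000 nt. The histogram has no gap at 400 nt, so the lower edge of the class divides a continuous tail. Just inside it lay ATP8A1, CIART, DYNLT2B and PPIB, 1 nt past the edge, and MRPL11 and PLTP at 402 nt, and just outside it PAQR8, RAB36 and VCL at 400 nt and RCOR3, RPP38-DT and ZNF703 at 399 nt. At the far end were the uaTSSs of HMGB1, a chromatin architectural protein, and SMARCA2, an ATPase of the SWI/SNF remodelling complex, both 1000 nt upstream, at the limit of the search. ETV7 and WNK1 followed at 997 nt, FARP2 at 994 nt and NFIB at 993 nt.

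A gene was assigned to 946 of the 947 gene TSSs from the GENCODE annotation, and 942 of these genes were protein-coding. They were 940 distinct genes, since 12 members shared their gene with another member, and 81 members belonged to a gene with another called TSS. FPKM was found for 926 members and was lacking for 21. Members are therefore close to 1 site per gene.

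The expression of genes with a distant uaTSS overlapped that of genes with a nearer one. The median FPKM of their genes was 19.0 (16.5 to 21.0, n = 926), with quartiles of 7.39 and 43.7, against 19.5 (18.7 to 20.6, n = 4513) for the other uaTSSs. On the log2(FPKM + 0.1) scale the difference of the medians, distant minus other, was −0.04. The exact interval of the members' median, less the median of the others taken as fixed, was −0.24 to 0.11 and includes 0. It leaves out the uncertainty of the median of the others. Genes whose uaTSS lay over 200 to 400 nt upstream had a median FPKM of 21.4 (19.9 to 23.3). The median for the 4786 gene TSSs with an FPKM value but no uaTSS was 13.6 (12.9 to 14.4), below the interval of the distant class.

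At the low and high ends of the distribution the intervals of distant and other uaTSSs overlapped as well. FPKM was under 1 for 36 of 926 members (3.89%, 2.74 to 5.34) and for 3.35% (2.84 to 3.91) of the other uaTSSs, against 8.98% (8.19 to 9.83) of gene TSSs with no uaTSS. No member gene was listed at an FPKM of 0, and the exact interval for 0 of 926 reached 0.398%. At the upper end 91 members (9.83%, 7.99 to 11.9) had an FPKM of 100 or more, beside 10.2% (9.37 to 11.2) of the others. Within the members the median FPKM in successive intervals of 100 nt was 21.4, 16.2, 19.4, 16.4, 15 and 19.5, with no steady trend. Across the 926 genes Spearman's rho between uaTSS distance and FPKM was −0.0466, a description across genes that share 1 library and 1 merged expression set.

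The most highly expressed genes with a distant uaTSS were genes that most cells express. The myosin light chain gene MYL6 had an FPKM of 790 and its uaTSS 661 nt upstream, inside an exon of the tandem gene MYL6B and of the antisense transcript MYL6B-AS1. HSPA8, which encodes the constitutive Hsc70 chaperone, had an FPKM of 661 with its uaTSS at 525 nt. RACK1, a scaffold protein of the small ribosomal subunit, had an FPKM of 638 and its uaTSS also at 525 nt. Further members at this end were the actin-binding protein gene TAGLN2 with an FPKM of 549, the polyubiquitin gene UBB with 546, the endoplasmic reticulum chaperone gene CALR with 526 and the cytoplasmic actin gene ACTG1 with 509. Their uaTSS distances were 577, 421, 638 and 817 nt in that order. ACTG1 was the member of these 7 with a downstream antisense TSS, only 29 nt downstream of its gene TSS.

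A downstream antisense TSS (daTSS) is an antisense start within 2000 nt downstream of the gene TSS, so that its RNA runs towards the promoter. A daTSS was called at 303 of the 947 members (32.0%, 29.0 to 35.1). The background was 32.9% of all gene TSSs with a uaTSS and 28.4% of all gene TSSs, so the share among the members was close to that of all uaTSSs. It was 33.1% (31.7 to 34.5) for the other uaTSSs and 23.4% (22.2 to 24.6) for gene TSSs with no uaTSS. Within the distant class the share ran from 28.4% to 33.3% over the 6 intervals of 100 nt.

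The distances of the daTSSs had overlapping intervals as well. The median gene TSS-daTSS distance was 508 nt (443 to 565) in the distant class and 484 nt (466 to 508) in the others. For 162 of the 303 members the daTSS was closer to the gene TSS than the uaTSS was. The distance from uaTSS to daTSS had a median of 1115 nt, against 681 nt in the other uaTSSs with a daTSS, a difference that the choice of distant uaTSSs carries with it. Spearman's rho between the uaTSS and daTSS distances was −0.0683 over the 303 members, again as a description. The highest expressed members with a daTSS after ACTG1 were P4HB, a protein disulfide isomerase gene with an FPKM of 432 and a daTSS at 508 nt, the poly(A)-binding protein gene PABPC1 with 345 and 1143 nt, the galectin gene LGALS1 with 344 and 1431 nt, GRINA with 344 and 12 nt, and the mucin gene MUC1 with 343 and 672 nt.

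A clear contrast between distant and nearer uaTSSs was in where the gene itself was annotated to start. The called gene TSS lay 100 nt or more downstream of the nearest annotated start of its gene at 188 members (19.9%, 17.4 to 22.5). The share was 8.44% (7.19 to 9.81) where the uaTSS lay at over 200 to 400 nt, 6.98% (6.26 to 7.75) over all other uaTSSs and 8.66% (7.89 to 9.49) where there was no uaTSS. The interval of the distant class did not overlap these. Since the uaTSS distance is measured from the called gene TSS, a call further downstream lengthens it. The contrast can thus follow in part from the choice of members, which was not tested. A called TSS 100 nt or more upstream of the annotated start was no more frequent, at 6.02% (4.59 to 7.73) of members and 5.88% (5.22 to 6.61) of the others.

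For these 188 members the called gene TSS was a median of 310 nt downstream of the annotated start, and the uaTSS a median of 580.5 nt (559 to 640) upstream of the called TSS. Measured from the annotated start, the uaTSS was a median of 248 nt upstream, and for 146 of the 188 (77.7%) it was no more than 400 nt upstream, 6 of these lying inside the gene. The shorter distance is carried by the choice of these 188, since measuring from the annotated start takes their offset away. Counting from the annotated start in all members, 199 of 946 uaTSSs (21.0%) fell within 400 nt. TAGLN2 is an example, with its called TSS 381 nt downstream of the annotated start and its uaTSS 577 nt upstream of the called TSS. NR4A1, an immediate early gene for an orphan nuclear receptor, had its uaTSS at 916 nt and its called TSS 670 nt downstream of the annotated start. SMARCC1, a core subunit of the SWI/SNF complex, had 585 and 465 nt. Expression of the 188 genes had a median FPKM of 15.1 (11.4 to 19.5) against 19.8 (17.5 to 22.2) for the other 759 members, with overlapping intervals, and the daTSS shares were 33.5% (26.8 to 40.7) and 31.6% (28.3 to 35.1).

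The order was the same in windows of fixed length, in which a longer uaTSS distance gives no more room. These windows are not a separate result. A gene TSS called 100 nt or more downstream of its annotated start has that start in these windows. An annotated start on the gene strand lay 100 to 400 nt upstream of the gene TSS at 395 members (41.7%, 38.5 to 44.9), against 24.2% (22.9 to 25.4) of the other uaTSSs and 24.0% (22.8 to 25.2) of gene TSSs with no uaTSS. Over more than 400 to 1000 nt upstream the shares were 30.7% (27.8 to 33.8), 15.8% (14.8 to 16.9) and 14.1% (13.1 to 15.1). In both windows the distant class stood above all others, as the plot of shares shows. Between the uaTSS and the gene TSS, at least 100 nt upstream of the latter, an annotated start on the gene strand was present at 515 members (54.4%, 51.1 to 57.6), of the same gene in 512. Whether any of these annotated starts was used in the cells was not measured. Gene-strand starts were also searched from the uaTSS to 100 nt past the gene TSS, and 914 members had one. The nearest of these was a median of 365.5 nt (340 to 379) from the uaTSS. No member had another called gene TSS on its strand within 1000 nt upstream. In the paper, overlapping search windows of the same gene were merged before gene TSSs were called. A further start of the same gene at that distance would thus mostly not be called. The absence of such calls therefore does not show whether the annotated starts were used.

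Called gene TSSs on the opposite strand were rare near the members. A divergent gene TSS within 1000 nt upstream of the gene TSS was called at 2 members (0.211%, 0.0256 to 0.761), against 4.20% (3.64 to 4.82) of the other uaTSSs and 20.6% (19.5 to 21.8) of gene TSSs with no uaTSS. The same 1000 nt were searched for uaTSSs, yet 1004 of the 4872 gene TSSs with no uaTSS had a called gene TSS there. Positions at called gene TSSs thus appear not to have been kept as uaTSSs. The contrast is therefore in part set by the calling. Within 5000 nt the shares were 3.80% (2.68 to 5.22), 7.87% (7.11 to 8.69) and 23.1% (21.9 to 24.3). That window contains the one of 1000 nt, so the order of the groups in it is not a separate result. No other called gene TSS on either strand lay within 5000 nt of 839 members (88.6%, 86.4 to 90.6) and of 84.7% (83.6 to 85.7) of the other uaTSSs.

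A further set of members lay near the called start of an overlapping gene. A called gene TSS on the strand of the uaTSS was within 1000 nt of 20 members (2.11%, 1.29 to 3.24) and of 7.33% (6.59 to 8.12) of the other uaTSSs. In 6 of the 20 it lay upstream of the sense gene, as in divergent pairs. In the other 14 it lay downstream of the sense gene TSS, so that transcription from it ran towards the sense gene TSS and the uaTSS lay further along that strand.

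A smaller share of the distant uaTSSs than of the other uaTSSs was at an annotated start on their own strand. An annotated start within 100 nt on the strand of the uaTSS was found for 144 members (15.2%, 13.0 to 17.7), against 19.5% (17.7 to 21.4) at over 200 to 400 nt and 21.7% (20.5 to 22.9) over all other uaTSSs. The start belonged to a protein-coding gene in 40 members (4.22%, 3.03 to 5.71), to a lncRNA in 97 (10.2%, 8.38 to 12.4) and to another type of transcript in 7. Among the other uaTSSs 7.96% (7.19 to 8.78) were at a protein-coding start and 13.0% (12 to 14) at a lncRNA start. The order was different for annotated starts in a window of fixed length. Over the fixed window of more than 400 to 1000 nt upstream of the gene TSS, an opposite-strand start of any type was annotated at 19.6% (17.2 to 22.3) of members and 9.95% (9.10 to 10.9) of the others. A protein-coding one was annotated at 4.01% (2.85 to 5.47) and 4.59% (4.0 to 5.24). The choice of members placed all their uaTSSs, and no other uaTSS, in this window. A higher share of members with an annotated start there therefore follows in part from that choice.

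The 40 members at a protein-coding start formed pairs of genes that run in opposite directions, and 16 of these uaTSSs were within 10 nt of the annotated nucleotide. In 4 they were on it, at the starts of TBCB (upstream of POLR2I), NDUFAF6 (upstream of CCNE2), CLCN2 (upstream of POLR2H) and THSD4 (upstream of CT62). FPKM was known for both genes in 39 pairs, and the gene on the uaTSS strand had the higher value in 21. Its median was 16.3, against 23.1 for the sense genes, and 34 of the 39 reached an FPKM of 1 and 25 an FPKM of 10.

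The pairs with the highest FPKM on the uaTSS strand included well-known housekeeping genes. HNRNPK, an RNA-binding protein gene, had an FPKM of 180 against 9.42 for RMI1, whose uaTSS, 780 nt upstream, was at an annotated HNRNPK start. RPL6 had 117 against 54.3 for the phosphatase gene PTPN11, TADA3 had 95.1 against 128 for the actin nucleation gene ARPC4, and the glutamate dehydrogenase gene GLUD1 had 92.2 against 23.1 for SHLD2. PHGDH, which encodes the entry enzyme of serine synthesis, had 83.2 against 1.33 for ZNF697. CBX5, the gene of heterochromatin protein HP1 alpha, had 82.0 against 58.2 for HNRNPA1, TACC3 had 72.8 against 56.3 for SLBP, and ISG20L2 had 68.3 against 39.8 for METTL25B. In ZNF697 and RMI1 the gene opposite was thus far above the sense gene, whereas in RPLP2, with an FPKM of 366, PIDD1 opposite had 9.79.

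Some of these opposite genes also had a called TSS elsewhere. A gene TSS of its own was called for the opposite gene in 24 of the 40 pairs, beside 276 of the 364 pairs at the other uaTSSs. In 9 of them it lay within 1000 nt downstream of the sense gene TSS, such as HNRNPK at 193 nt, GLUD1 at 184 nt and TADA3 at 413 nt, so the uaTSS was at an annotated start further into the opposite gene. In the other 15 it lay upstream of the sense gene, 14 of them by more than 1000 nt, and the uaTSS was at an outer annotated start of the opposite gene. For RPL6 this called TSS was 9906 nt and for PHGDH 64257 nt away from the sense gene TSS. The FPKM of such a gene covers all its starts, so RNA from the start at the uaTSS and RNA from the called TSS cannot be told apart. No gene TSS was called for 16 opposite genes, of which 6 had an FPKM of 10 or more: ISG20L2 at 68.3, CENPN at 41.1, SYCP2 at 24.8, TAFAZZIN at 16.3, ELF1 at 14.5 and FEZ1 at 11.1.

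The 97 members at a lncRNA start were mostly at transcripts with no FPKM value. The names of 30 marked them as divergent transcripts and those of 15 as antisense RNAs, and 31 uaTSSs were within 10 nt of the annotated start. An antisense name need not refer to the sense gene, as with TM4SF19-AS1 at the uaTSS of DYNLT2B. FPKM was known for 9 of these lncRNAs and was 1 or more for 7. HOXC-AS3 had an FPKM of 20.8 opposite the homeobox gene HOXC10 with 128, RALY-AS1 had 12.4 opposite RALY with 64.1, and TBX2-AS1 had 4.55 opposite the T-box gene TBX2 with 2.54. These 3 pairs were named after their values were seen. The sense genes of the 97 had a median FPKM of 19.1 (11.8 to 27.2), close to that of the 803 members at no annotated start, 18.7 (15.9 to 20.7). By the FPKM of the sense gene, the 6 highest members at a start of any type on the uaTSS strand were HSPA8, RPLP2 and GRINA, given above, the phosphatase inhibitor gene ENSA with 309, the respiratory chain gene UQCRC2 with 289 and the elongation factor gene EEF1G with 203. A daTSS was called at 33 of the 97 (34.0%, 24.7 to 44.3) and at 7 of the 40 at a protein-coding start (17.5%, 7.34 to 32.8), where the intervals overlapped.

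A large share of the members were outside any annotated transcript. The uaTSS lay outside transcripts of either strand at 407 members (43.0%, 39.8 to 46.2), near the 40.4% (39.0 to 41.9) of the others. On the gene strand it was in an intron at 20.9% (18.4 to 23.6) and in an exon at 12.7% (10.6 to 15), and on its own strand in an exon at 21.0% (18.5 to 23.7). The uaTSS of FOXA1, for example, lay 834 nt upstream in an intron of TTC6 on the opposite strand.

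The CpG islands of the members extended further upstream. Islands were found on the genome sequence with the scoring used for the UCSC track, and 803 members (84.8%, 82.3 to 87.0) had their gene TSS in an island, against 88.6% (87.6 to 89.5) of the other uaTSSs and 76.8% (75.6 to 78.0) of gene TSSs with no uaTSS. Upstream of the gene TSS these islands reached a median of 617 nt (595 to 660), against 407 nt (395 to 420) in the class at over 200 to 400 nt and 349 nt (337 to 360) in the other uaTSSs. Downstream the reach was 513 nt (485 to 554) and 488 nt (475 to 499). The contrast with the other uaTSSs was thus on the side of the uaTSS. Among all members 620 (65.5%, 62.3 to 68.5) had an island that reached more than 400 nt upstream, and 38.0% (36.6 to 39.4) of the others.

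The position of the uaTSS relative to the upstream edge of the island varied. The uaTSS was inside the island at 519 of the 803 members (64.6%, 61.2 to 67.9), against 83.3% (82.1 to 84.5) of the others, and its signed position, positive inside the edge and negative beyond it, had a median of 70 nt (54 to 86), against 143 nt (134 to 155). It was within 250 bp of that edge at 56.7% (53.2 to 60.1) of members and 62.2% (60.7 to 63.7) of the others. All these measures use the uaTSS distance that chose the members, so the contrasts follow in part from that choice. Spearman's rho between uaTSS distance and upstream reach over the 803 was 0.321, a description of sites that share their sequence window. ACTG1 had an island reaching 2601 nt upstream around a uaTSS at 817 nt, while RACK1 had its uaTSS 525 nt upstream of a gene TSS whose island ended at 92 nt. Genes with the uaTSS inside and beyond the island had median FPKM values of 18.3 (15.4 to 20.6) and 21.1 (17.3 to 25), with overlapping intervals.

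The GC content followed the islands. Over more than 400 to 1000 nt upstream of the gene TSS, a window of the same length for all classes, the median GC content was 56.8% (56.3 to 57.7) in members and 49.3% (49.2 to 49.7) in the other uaTSSs. In the 200 nt next to the gene TSS it was 69.5% (69.0 to 70.5) and 68.5% (68.0 to 68.5). Between the uaTSS and the gene TSS it was 67.1% (66.5 to 67.7) in members and 69.5% (69.1 to 69.8) in the others, over intervals that differ in length. Over 500 nt beyond the uaTSS, in the direction of its transcription, the median was 53.6% (53.0 to 54.2) in members and 54.4% (54.0 to 54.8) in the others, and it was 56.3% (55.2 to 57.2) in the class at 1 to 80 nt.

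The letters at the start itself had overlapping shares in distant and other uaTSSs. A C or T followed by an A or G at the called nucleotide, the minimal initiator, was present at 611 members (64.5%, 61.4 to 67.6), at 64.7% (63.3 to 66.1) of the other uaTSSs and at 65.9% (62.8 to 68.9) of the gene TSSs of the members. At a position 50 nt downstream of the distant uaTSSs it was present at 20.2% (17.7 to 22.9). CANA or CANT with A as the called nucleotide was found at 19.7% (17.3 to 22.4) and 18.4% (17.3 to 19.6) of distant and other uaTSSs.

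Upstream elements gave a difference for the GC box, the site of Sp1-type factors. GGGCGG, or its reverse complement CCGCCC, within 50 nt upstream of the start was found at 200 distant uaTSSs (21.1%, 18.6 to 23.9) and at 28.5% (27.2 to 29.9) of the other uaTSSs. At the gene TSSs of the members it was found at 30.6% (27.7 to 33.7), and at those of the other uaTSSs at 28.1% (26.8 to 29.4). Inside the members the share was 25.8% where the uaTSS lay in the island and 12.3% where it lay beyond its edge. The GC content of the 200 nt centred on the uaTSS, which moves with this match, was 62.2% (61.7 to 63.2) in members and 65.2% (64.7 to 65.2) in the others. Its part in the result was not tested.

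Gene families were counted in the class beside the 17.2% of all uaTSSs that were distant. SWI/SNF remodelling subunits had 5 of their 9 uaTSSs in the distant class (55.6%, 21.2 to 86.3). These were SMARCD2 with an FPKM of 185 and its uaTSS at 585 nt, SMARCC1 with 58.0 at 585 nt, the ATPase gene SMARCA4 with 48.1 at 476 nt, PHF10 with 19.9 at 572 nt and SMARCA2 with 13.9 at 1000 nt. Homeobox genes had 8 of 24 (33.3%, 15.6 to 55.3) and immediate early genes 5 of 14 (35.7%, 12.8 to 64.9). The immediate early members were JUND, an AP-1 subunit, with an FPKM of 35.7, the mRNA decay factor gene ZFP36 with 19.8, NR4A1 with 10.4, KLF10 with 10.3, and EGR1, which was below the FPKM of 10 set for naming, with 0.201. Of the 14 lists counted, SWI/SNF was the one whose interval did not include 17.2%. No list was tested, and the intervals were not adjusted for the number of lists. Among the SWI/SNF members, the gene TSSs of SMARCC1 and PHF10 were called 465 and 366 nt downstream of their annotated starts. Their distances from the annotated starts are thus shorter than those given.

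Regulators of luminal identity and hormone response had 5 of 19 uaTSSs in the class (26.3%, 9.15 to 51.2). XBP1, a transcription factor of the unfolded protein response, had an FPKM of 461 and its uaTSS at 435 nt. FOXA1, the pioneer factor of luminal breast cells, had 113 at 834 nt, TFAP2A had 76.3 at 419 nt and GRHL2 had 59.8 at 514 nt. The T-box gene TBX3 was the remaining one. Cell cycle genes had 3 of 17 (17.6%, 3.80 to 43.4), with CDK4 at an FPKM of 154 and 406 nt and the cyclin gene CCNE2 at 30.5 and 621 nt, besides E2F3. NELFA, a subunit of the pausing factor NELF, was 1 of 11 pausing and elongation genes, with an FPKM of 28.0 and its uaTSS at 408 nt, and IRS2 was 1 of 4 in the ERBB and IGF list.

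The lists of ribosomal protein genes held few members. The cytosolic ribosomal proteins had 4 of 50 uaTSSs in the distant class (8.0%, 2.22 to 19.2) and the mitochondrial ones 2 of 38 (5.26%, 0.644 to 17.7), and both intervals include 17.2%. The cytosolic group included RPLP2, RPL23A and RPS26, none of which had a daTSS. Proteasome subunits had 3 of 26, RAB GTPases 4 of 28, histones 1 of 13, zinc finger genes 35 of 240 (14.6%, 10.4 to 19.7) and solute carriers 18 of 97 (18.6%, 11.4 to 27.7). The 35 zinc finger members had a median FPKM of 6.14, and 13 of them had a daTSS.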

How the data were processed

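Start-seq reads were filtered at an average quality of 20, trimmed with cutadapt 1.2.1 and aligned to hg19 with Bowtie 0.12.8 by the authors, who deposited single-nucleotide TSS calls whose score is 0 throughout. RNA-seq reads were aligned with TopHat2 2.0.4, duplicates were removed with Picard 1.118, and the 3 replicates were merged into 1 FPKM value per gene with Cufflinks 2.2.1, as deposited by the authors. Distances were computed here from the paired calls with Python 3.11.15, numpy 2.4.6, pandas 2.3.3, scipy 1.17.1 and pysam 0.24.0, and plots drawn with matplotlib 3.10.9. Genes were assigned from GENCODE v44 lifted to GRCh37, which is not the annotation the authors called from, taking a start within 1000 nt on the same strand. FPKM was joined by symbol, by older RefSeq symbol (44 members) and by locus, giving 10225 of 10391 gene TSSs a value; 28 symbols of the table had been turned into dates. CpG islands were scored with +17 per CpG and −1 per other base, over 200 bp, with GC of 50% or more and an observed to expected CpG ratio above 0.6. A pseudocount of 0.1 was added to FPKM on the log2 scale, with no filter on low values. The functions were tested on simulated data.

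Named were the 8 members with the highest FPKM, the 6 longest and 6 shortest distances with the 6 just outside, listed genes with FPKM of at least 10, the 6 highest with a daTSS, and the 8 highest at a start on the uaTSS strand by the FPKM of that gene and the 6 highest by that of the sense gene. An item that the rule names is not reported here. The members and lists were chosen with earlier results of these data known. No test was run, since 1 library of calls and 1 merged expression value leave no spread between samples. Alternatives were the lower edge of the class, windows, filters and 1 TSS per gene.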

Additional observations from a re-analysis of the deposited data

How the results depend on the processing

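Of 28 alternatives, 16 stayed within the interval of the reported value and 12 moved outside it. The alternatives were run for the values of the members, and the log2 FPKM difference was the only comparison with the other uaTSSs among them; it stayed below 0. With members limited to more than 500 nt the median distance was 651 nt, by construction. Counting daTSSs only within 1000 nt gave a share of 25.4%. Divergent called gene TSSs within 2000 and 5000 nt gave 1.16% and 3.80%. Match windows of 50 and 250 nt for annotated starts on the uaTSS strand gave 12.2% and 21.8%. Gene-strand starts between the sites came to 64.9% from 50 nt upstream and to 50.6% for protein-coding transcripts only. GC content was 69.5% over the 200 nt upstream of the gene TSS and 62.2% over the 200 nt centred on the uaTSS, and the initiator share was 30.6% for CA and 75.1% within 1 nt. These alternatives measure wider, narrower or different windows. Median FPKM ranged from 17.3 to 20.0 and the log2 difference from −0.17 to −0.03, with 3 of its alternatives (more than 500 nt, FPKM of at least 1, no other called TSS within 5000 nt) added after the data were seen.

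No paired analysis was possible because 1 library had TSS calls and no result came from a test, and no replicate was left out for the same reason. The depth behind each call is unknown, so a weak nearer uaTSS cannot be told from none. Exact positions of annotated starts depend on the annotation release.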

Other observations

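The share of uaTSSs that were distant varied by chromosome. It was 25.2% on chromosome 17 (80 of 318, exact 95% interval 20.5 to 30.3) and 22.3% on chromosome 19 (80 of 358, 18.1 to 27.0), and the lowest share was 12% on chromosome 10 (26 of 217, 7.98 to 17.1). These are counts of sites in 1 library, with no test between chromosomes.

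The 37 members with TATAA or TATAT upstream of the gene TSS made up 3.91% (2.77 to 5.35) of the class, beside 2.62% (2.18 to 3.13) of the other uaTSSs. Of these 37 gene TSSs, 2 were among the 188 called 100 nt or more downstream of the annotated start.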
